A study of Mus musculus with 6 samples.

Results

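The interferon-stimulated genes are a set of 40 mouse genes, listed by name, that interferons are known to switch on. They were taken from the gene table by symbol, and 39 of the 40 were found among its 14228 genes. Xaf1 was the listed gene not found. RNA was counted in 6 libraries of podoplanin-positive stomach cells, 3 from stomachs with cancer (cancer-associated fibroblasts, CAF) and 3 from control stomachs (normal). All mice carried the triple-transgenic iLgr5;GLI2A background, in which Lgr5-expressing stem cells can be made to produce an active form of the Hedgehog factor GLI2. Their age was 8 weeks. The CAF mice received tamoxifen in corn oil by gavage for 5 days and then doxycycline chow for 3 weeks, with doxycycline in sucrose water during the first 3 days. The control mice carried the same transgenes and received corn oil without tamoxifen or doxycycline, so that drug and cancer cannot be told apart. CAF libraries 1, 2 and 3 pooled 1, 2 and 2 mice, and normal libraries 1, 2 and 3 pooled 1, 1 and 2 mice. Cells positive for CD31 (endothelium), CD45 (leukocytes) or EpCAM (epithelium) were sorted out, and MARS-seq counted the 3′ ends of transcripts.

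Interferons are secreted proteins that warn cells of infection. Type I interferon binds the receptor IFNAR1-IFNAR2 and, through the kinases JAK1 and TYK2, forms a complex containing STAT2 and IRF9 that binds the interferon-stimulated response element (ISRE) in promoters. Interferon gamma acts through IFNGR1-IFNGR2 and on promoters that hold the gamma-activated site (GAS). Fibroblasts are among the cells that make and answer type I interferon, and many of these genes have a low tonic level without infection.

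The libraries held between 644522 (CAF library 1) and 6422568 counts (CAF library 2). Levels are given as CPM (a gene's count relative to the scaled size of its library), where 3 counts, the limit that a count of 0 allows, were 4.39 CPM in CAF library 1, 0.414 and 0.406 CPM in CAF libraries 2 and 3, and 1.22, 3.80 and 3.75 CPM in normal libraries 1, 2 and 3. All 12 fibroblast markers had counts in every library, taking 1.06% to 3.69% of the counts in CAF and 0.445% to 1.77% in normal libraries. The 18 gastric gland markers in the table took 0.604% to 0.856% of the counts in CAF, but 20.0%, 16.4% and 4.12% in normal libraries 1, 2 and 3, so normal libraries 1 and 2 stood apart. The 7 squamous forestomach markers in the table summed to 1806 and 2451 CPM in normal libraries 1 and 2, 140 CPM in normal library 3 and 127 to 268 CPM in CAF. RNA of epithelial genes was present in both groups despite the sort: Epcam was at 114 to 233 CPM in CAF and 13.8 to 150 CPM in normal libraries, and the 8 general epithelial markers summed to 1327 to 3054 CPM and 1046 to 4775 CPM. Within that list Cldn3, a tight junction protein, rose 20.1-fold in CAF (edgeR adjusted p = 0.0124), and Cldn7 was 7.37-fold higher without passing (edgeR adjusted p = 0.0841). Krt19 was 4.09-fold lower in CAF without passing (edgeR adjusted p = 0.0647), with every normal library above every CAF library. The rest of the list went both ways, with log2 fold changes of 2.28 for Cldn4, 0.94 for Epcam, -0.15 for Krt18, -1.03 for Krt8 and -1.10 for Cdh1. The part of these cell types in the results that follow was not tested. Of the 9 leukocyte markers in the table, summed levels were 196 to 647 CPM in CAF and 51.8 to 469 CPM in normal libraries, with Ptprc (CD45) at 0 counts in CAF library 1 and normal libraries 1 and 3. The 5 markers of plasmacytoid dendritic cells in the table summed to 217 to 262 CPM in CAF and 439 to 522 CPM in normal libraries. Most of each sum came from Bst2 and Ly6d. Ly6d was at 107, 83.0 and 93.7 CPM in CAF libraries 1, 2 and 3 and 285, 288 and 18.8 CPM in normal libraries 1, 2 and 3. Siglech, the defining marker, had 6 counts in CAF library 3, 1 in normal library 2 and 0 in the other libraries. The 9 endothelial markers in the table summed to 42.4 to 77.2 CPM in CAF and 35.0 to 107 CPM in normal libraries, with Pecam1 (CD31) at 0 in CAF library 1 and normal library 3.

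The promoters of these genes were searched for the ISRE and GAS sequences. RefSeq promoters (GRCm38.p6, 250 bases before to 50 bases after the start) were available for 31 of the 39 genes. Dhx58, Usp18, Mx1, Mx2, Parp9, Parp14, Ifi27 and Rtp4 had no entry. The ISRE core (TTTC, any pair of bases, then TTTC again), on either strand and with overlapping matches allowed, was found in 17 of the 31 promoters (54.8%), against 3.99% of all 27025 genes with a promoter. The GAS core TTCNNNGAA, which reads the same on both strands, was found in 10 of the 31 (32.3%), against 9.55% of all genes. A match is only a run of letters, and genes are called interferon-stimulated partly because of such elements. The 7 windows of 100 bases below carry an ISRE and were chosen for genes whose levels are set out in the following paragraphs, and the window of Irf1 carries a GAS. Each is written 5′ to 3′ on the strand of the gene, with the core matches in capitals.
Isg15 (chr4:156200836-156200935, minus strand): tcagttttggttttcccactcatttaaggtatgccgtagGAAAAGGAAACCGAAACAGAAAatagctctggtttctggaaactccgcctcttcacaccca
Oas1a (chr5:120907488-120907587, minus strand): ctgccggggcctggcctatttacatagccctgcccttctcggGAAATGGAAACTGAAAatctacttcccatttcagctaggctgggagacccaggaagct
Stat2 (chr10:128270248-128270347, plus strand): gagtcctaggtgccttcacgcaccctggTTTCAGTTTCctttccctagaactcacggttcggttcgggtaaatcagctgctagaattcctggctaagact
Bst2 (chr8:71537545-71537644, minus strand): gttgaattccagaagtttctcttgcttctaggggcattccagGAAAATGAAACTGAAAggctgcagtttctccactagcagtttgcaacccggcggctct
Ifit1 (chr19:34640749-34640848, plus strand): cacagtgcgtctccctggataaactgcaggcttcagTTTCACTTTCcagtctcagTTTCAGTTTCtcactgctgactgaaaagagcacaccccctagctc
Irgm1 (chr11:48871393-48871492, minus strand): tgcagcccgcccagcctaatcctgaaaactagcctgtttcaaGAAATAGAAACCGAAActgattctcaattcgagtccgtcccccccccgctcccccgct
Ifitm3 (chr7:141010695-141010794, minus strand): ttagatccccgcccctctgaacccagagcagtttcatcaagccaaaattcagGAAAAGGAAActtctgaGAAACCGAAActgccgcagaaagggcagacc
Irf1 (chr11:53769878-53769977, plus strand): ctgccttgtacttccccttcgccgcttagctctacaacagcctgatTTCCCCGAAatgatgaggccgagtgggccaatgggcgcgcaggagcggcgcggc
In Isg15, 3 overlapping matches form 1 run that begins 78 bases before the start. Bst2, Irgm1 and Oas1a each hold a pair of overlapping matches, Ifit1 and Ifitm3 each hold a pair of separate matches, and Stat2 holds a single one 222 bases before the start. In Bst2 and Ifitm3 a GAS match overlaps an ISRE match.

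As a set, the interferon-stimulated genes were not raised in CAF, and the larger differences pointed to lower levels. Of the 39 genes, 32 had enough counts to be tested, and 0 of the 32 passed edgeR's quasi-likelihood test at a Benjamini-Hochberg adjusted p of 0.05 in either direction. Among all 10148 genes tested, 0.207% were called lower and 0.897% higher in CAF. At an unadjusted p under 0.05, 6 of the 32 were lower (Ifi27, Isg15, Stat2, Ifi35, Psmb9 and Irf9) and 0 were higher, where 7.97% of all genes were lower and 7.37% higher. Without CAF library 1, 2 or 3 that count of lower genes was 5 of 37, 2 of 26 and 5 of 25 tested. Without normal library 1, 2 or 3 it was 2 of 26, 9 of 35 and 4 of 37 tested. The genes tested thus differed between these fits, and the share of all genes at this p was not computed for them. The count of higher genes was 2 without CAF library 1 and 3 without normal library 3, so that in the latter fit the directions were nearly balanced, and it was 0 without each of the other libraries. The median log2 fold change of the 32 was -0.53, against 0.06 over all genes tested, and 21 of the 32 were negative, as were 46.1% of all genes. Without 1 library the median of those of the 32 still tested, 24 to 32 genes, ranged from -0.83 to -0.34. The lowest median, without CAF library 3, was that of 24 genes, so the range holds a change of genes as well. In 6 of the 32 every normal library lay above every CAF library and in 0 every CAF library lay above, where 9.35% and 10.6% of all genes did so. The tested genes are those with counts in several libraries, so these counts describe them and not the whole list. In bulk samples, fewer expressing cells and less RNA per cell cannot be told apart.

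By DESeq2, which called 4.17% of its 12835 genes lower and 3.12% higher, 3 of 38 genes with an adjusted p were lower (Ifi27, Isg15 and Oas1a) and 0 higher. In the authors' deposited table the same 3 genes of 39 had an adjusted p under 0.05, at 0.00112, 0.00587 and 0.0373. There 3.61% of all genes were lower and 2.76% higher. For these 3 genes the log2 fold changes of that table (-2.04, -1.82 and -3.06) equal those of DESeq2 on the same counts. It is therefore not a source separate from the DESeq2 fit. By limma-voom 0 of 32 passed, with 0.158% of all genes called lower and 0.483% higher.

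**Figure D1:**
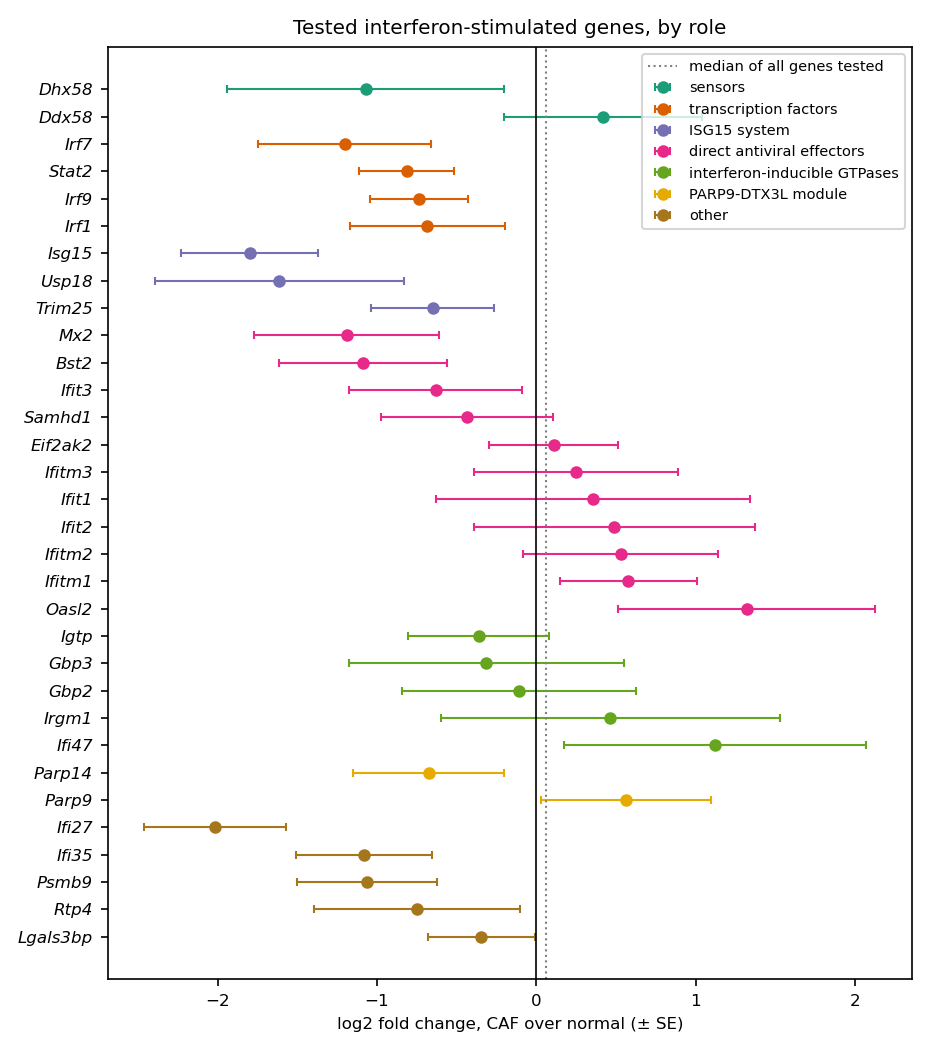
Log2 fold change of CAF over normal with its standard error (horizontal axis) for the 32 tested interferon-stimulated genes, coloured by role, with the median of all genes tested (0.06) as a dotted line. All tested transcription factors and ISG15-system genes lie left of 0, while Oasl2 and Ifi47 lie farthest to the right with wide errors.

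Isg15, Usp18 and Trim25 belong to the system that tags proteins with ISG15, a ubiquitin-like modifier. Isg15 (chromosome 4, 156199424 to 156200818, GENCODE on GRCm38) was at 42.4, 32.3 and 33.9 CPM in CAF libraries 1, 2 and 3 and at 143, 59.5 and 171 CPM in normal libraries 1, 2 and 3. The groups did not overlap, and the CAF libraries lay close together while normal library 2 was the lowest of its group. The log2 fold change was -1.80 ± 0.43 (SE; 3.48-fold lower, edgeR adjusted p = 0.0906). Against normal library 3 alone it was -2.20 (adjusted p = 0.259). Usp18, the protease that removes ISG15 and restrains the type I receptor, was at 0, 3.04 and 7.30 CPM in CAF and 15.1, 7.60 and 15.0 CPM in normal libraries. Its groups did not overlap but nearly touched, and its 0 in CAF library 1 lies under a limit of 4.39 CPM (log2 fold change -1.61 ± 0.78 SE, edgeR adjusted p = 0.39). Trim25, a ubiquitin ligase that also carries ISG15 and acts with the sensor RIG-I, was at 17.6, 32.3 and 33.8 CPM in CAF and 57.9, 32.9 and 42.5 CPM in normal libraries, a log2 fold change of -0.65 (edgeR adjusted p = 0.505).

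The transcription factors of the list were all lower on average in CAF, none past the test. Stat2, the STAT found only in the type I and III response, was at 38.0, 33.4 and 43.0 CPM in CAF and 65.7, 57.0 and 78.8 CPM in normal libraries. Irf9, the DNA-binding partner of STAT2, was at 29.3, 33.7 and 41.3 CPM in CAF and 58.4, 49.4 and 67.5 CPM in normal libraries. Both genes had no overlap between the groups and a narrow spread within each. Their log2 fold changes were -0.81 ± 0.30 for Stat2 and -0.74 ± 0.31 for Irf9 (SE; edgeR adjusted p = 0.243 and 0.306), and against normal library 3 alone they were -0.99 and -0.88. Irf9 shares its span on the same strand with Rnf31 in the annotation, so reads could be split between them. Irf7, which amplifies interferon production, was at 24.9, 19.5 and 54.9 CPM in CAF and 119, 39.3 and 71.3 CPM in normal libraries, with CAF library 3 above normal library 2 (log2 fold change -1.20, edgeR adjusted p = 0.353). Irf1, a factor of the interferon gamma response whose promoter window holds the GAS shown, was at 256 CPM in CAF library 1 and 97.8 and 79.7 CPM in CAF libraries 2 and 3. In the normal libraries Irf1 was at 230, 181 and 278 CPM, so CAF library 1 lay among them, and the log2 fold change was -0.69 (edgeR adjusted p = 0.587). Without CAF library 1 it was -1.37.

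**Figure D2:**
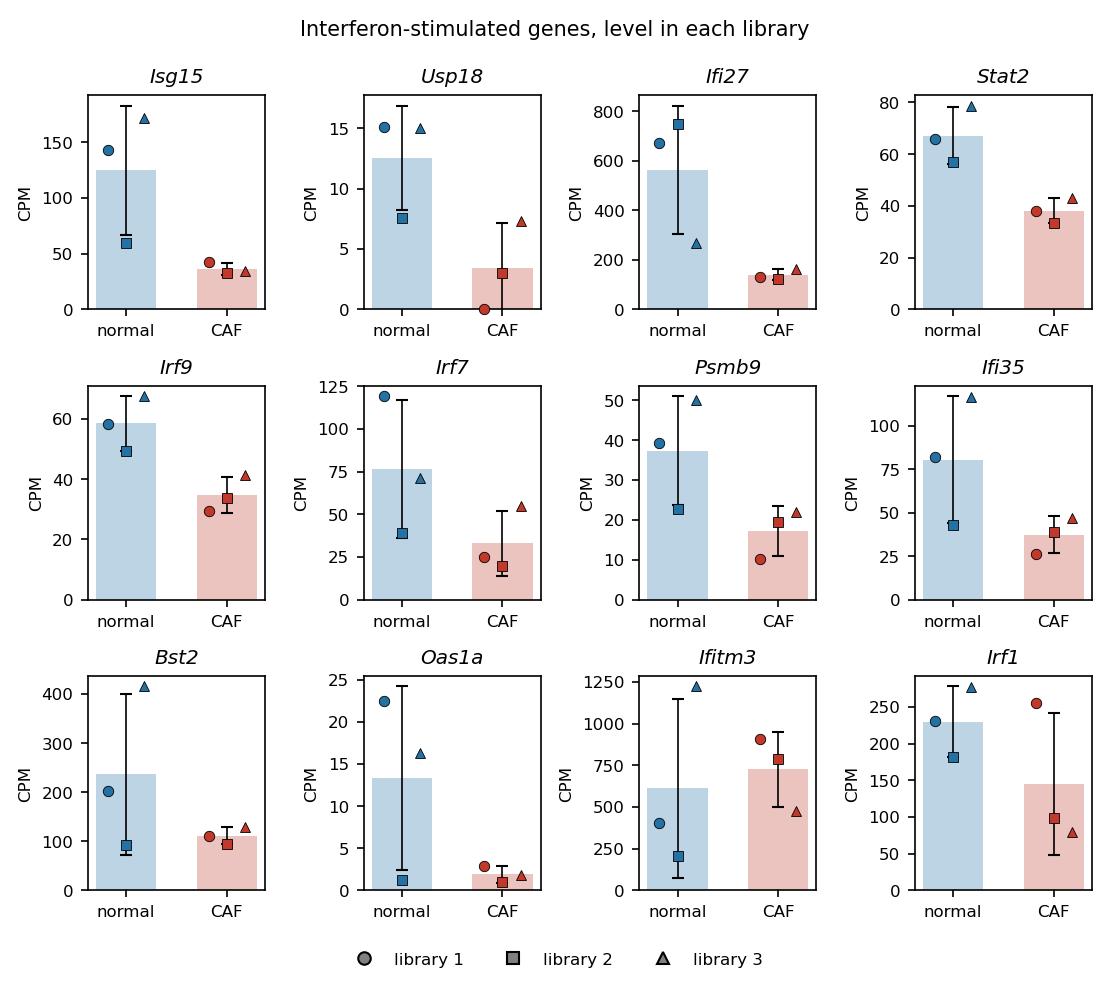
CPM (vertical axes, from 0) of 12 interferon-stimulated genes in the 3 normal (blue) and 3 CAF libraries (red); bars are means, whiskers the SD (cut at 0), and symbols the libraries. Isg15, Usp18, Ifi27, Stat2, Irf9 and Psmb9 have every normal library above every CAF library, while in Irf1 and Ifitm3 the groups overlap.

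Ifi27, a small mitochondrial and nuclear membrane protein strongly induced by type I interferon, was the list's gene of smallest p. It was at 132, 122 and 165 CPM in CAF and 674, 751 and 268 CPM in normal libraries 1, 2 and 3. The groups did not overlap, and normal library 3 was closer to the CAF libraries than normal libraries 1 and 2 were. The log2 fold change was -2.02 ± 0.45 (SE; 4.04-fold lower, edgeR adjusted p = 0.0762). Without normal library 3 it passed (log2 fold change -2.42, edgeR adjusted p = 0.00641), in a fit that called 781 of 11888 genes lower and 412 higher. Against normal library 3 alone Ifi27 had a log2 fold change of -0.88. Its order among the normal libraries was unlike that of Isg15, which was highest in normal library 3. The gland marker share, 20.0%, 16.4% and 4.12% in normal libraries 1, 2 and 3, was also lowest in normal library 3, and its part in the level of Ifi27 was not tested.

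Ifi35, a partner of the STAT-binding protein NMI, was at 26.3, 38.6 and 47.2 CPM in CAF and 82.0, 43.1 and 116 CPM in normal libraries, with CAF library 3 just above normal library 2 (log2 fold change -1.08, edgeR adjusted p = 0.285). Psmb9, a catalytic subunit of the immunoproteasome that cuts peptides for MHC class I, was at 10.2, 19.5 and 22.0 CPM in CAF and 39.2, 22.8 and 50.0 CPM in normal libraries. Its groups did not overlap, by a narrow margin (log2 fold change -1.06, edgeR adjusted p = 0.305). Psmb9 overlaps Tap1 on the other strand, and whether the counting used strand is not given in the sources used here. Lgals3bp, a secreted galectin-binding glycoprotein, was at 158, 214 and 305 CPM in CAF and 306, 256 and 301 CPM in normal libraries, a log2 fold change of -0.35 (edgeR adjusted p = 0.711). Rtp4, a receptor transporter protein that also restrains interferon responses, was at 1.46, 12.3 and 14.7 CPM in CAF and 24.1, 15.2 and 12.5 CPM in normal libraries, with the low value in CAF library 1 resting on 1 count.

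The effectors that act on viruses directly did not move as 1 group. Of 14 such genes 11 were tested, with 4 negative and 7 positive fold changes and a median log2 fold change of 0.25. Bst2 (tetherin, which holds budding viruses at the membrane) was at 111, 93.6 and 128 CPM in CAF and 202, 91.2 and 415 CPM in normal libraries. Normal library 3 was far above the rest and normal library 2 the lowest of all 6 (log2 fold change -1.09, edgeR adjusted p = 0.391). Samhd1, which depletes nucleotides, was at 48.3, 41.0 and 50.3 CPM in CAF and 32.6, 35.5 and 123 CPM in normal libraries. Only in normal library 3 did it lie above the CAF libraries, and its log2 fold change of -0.44 became 0.38 without that library (edgeR adjusted p = 0.775 and 0.514). Eif2ak2, the RNA-activated kinase PKR, was at 46.8, 24.0 and 35.0 CPM in CAF and 31.0, 43.1 and 22.5 CPM in normal libraries, with full overlap (log2 fold change 0.11).

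The IFITM genes encode membrane proteins that block virus entry, and their sequences are similar enough that reads could be exchanged. Ifitm3 was at 910, 789 and 476 CPM in CAF and 403, 206 and 1223 CPM in normal libraries. Ifitm2 was at 890, 656 and 508 CPM in CAF and 337, 166 and 922 CPM in normal libraries. Ifitm1 was at 189, 219 and 171 CPM in CAF and 75.5, 98.8 and 215 CPM in normal libraries. In all of them normal libraries 1 and 2 were lowest, and normal library 3 lay within the CAF range for Ifitm1 and above it for Ifitm2 and Ifitm3. Their log2 fold changes were 0.25, 0.53 and 0.58 (edgeR adjusted p = 0.908, 0.76 and 0.607), and against normal library 3 alone they were -0.71, -0.38 and -0.10. The 3 IFITM genes took 66.3%, 62.9% and 46.9% of the counts of all 39 genes in CAF libraries 1, 2 and 3 and 26.7%, 20.2% and 51.4% in normal libraries 1, 2 and 3. Summed over all 39 genes, the level was 2999, 2644 and 2461 CPM in CAF and 3053, 2337 and 4596 CPM in normal libraries, so the groups overlapped, with normal library 2 the lowest of all 6. Summed over the other 36 genes, a split made after the levels of the IFITM genes were seen, it was 1011, 980 and 1306 CPM in CAF and 2238, 1866 and 2236 CPM in normal libraries, with every normal library above every CAF library. That separation rests on Ifi27, which alone held 132, 122 and 165 CPM of the sum in CAF and 674, 751 and 268 CPM in normal libraries. With Ifi27 left out of the sum, CAF library 3 lies above normal library 2 and the groups overlap. Fibroblast markers took 0.445%, 0.934% and 1.77% of the counts in normal libraries 1, 2 and 3, where the IFITM genes summed to 815, 471 and 2360 CPM. In CAF libraries 1, 2 and 3 the share rose from 1.06% to 2.99% and 3.69%, while the IFITM sum fell from 1988 to 1664 and 1155 CPM. The part of fibroblast content in the IFITM levels was not tested.

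The IFIT genes, which bind foreign RNA, had few counts. Ifit3 was at 8.78, 6.21 and 11.2 CPM in CAF and 8.98, 10.1 and 22.5 CPM in normal libraries. Ifit1, whose promoter window is shown above, was at 2.93, 6.90 and 8.79 CPM in CAF and 2.86, 13.9 and 0 CPM in normal libraries. Ifit2 was at 0, 4.55 and 11.0 CPM in CAF and 3.26, 5.07 and 5.00 CPM in normal libraries. No difference was detectable at this depth, with edgeR adjusted p-values of 0.67, 0.915 and 0.853 for Ifit3, Ifit1 and Ifit2. Mx2, a GTPase related to dynamin and annotated as a polymorphic pseudogene, was at 2.93, 3.59 and 4.73 CPM in CAF and 12.2, 3.80 and 10.0 CPM in normal libraries (log2 fold change -1.19, edgeR adjusted p = 0.392).

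The 2′-5′-oligoadenylate synthetases sense double-stranded RNA, and none of those tested passed. Differences between the paralogs were not tested. Oas1a had 2, 7 and 13 counts in CAF and 55, 1 and 13 counts in normal libraries, or 2.93, 0.966 and 1.76 CPM against 22.4, 1.27 and 16.3 CPM. It was high in normal libraries 1 and 3 and within the CAF range in normal library 2. It did not reach the count filter, and without a filter its log2 fold change was -3.07 (edgeR adjusted p = 0.152). By DESeq2 its log2 fold change was -3.06, the same as in the authors' deposited table. Oasl2, a catalytically active OAS-like protein, was at 1.46, 12.6 and 25.6 CPM in CAF and 5.71, 7.60 and 3.75 CPM in normal libraries, with CAF library 1 lowest and CAF library 3 highest of all (log2 fold change 1.32 ± 0.81 SE, edgeR adjusted p = 0.52). Oasl1, its neighbour on chromosome 5 and a translational inhibitor of Irf7, was at 4.39, 5.93 and 5.54 CPM in CAF and 66.1, 29.1 and 21.3 CPM in normal libraries. Its groups did not overlap (log2 fold change -2.85 ± 0.53 SE, edgeR adjusted p = 0.0562). Oasl1 passed without normal library 3 (-3.20, edgeR adjusted p = 0.0113), in a fit that called 781 of 11888 genes lower. Against normal library 3 alone its log2 fold change was -1.89. Oas2 was at 7.32, 5.93 and 11.0 CPM in CAF and 58.4, 6.33 and 43.8 CPM in normal libraries, the same order of libraries as Oas1a among the normal ones (log2 fold change -2.17, edgeR adjusted p = 0.206). Oas1b, named after its values were seen, had a log2 fold change of -1.62 (edgeR adjusted p = 0.223).

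**Figure D3:**
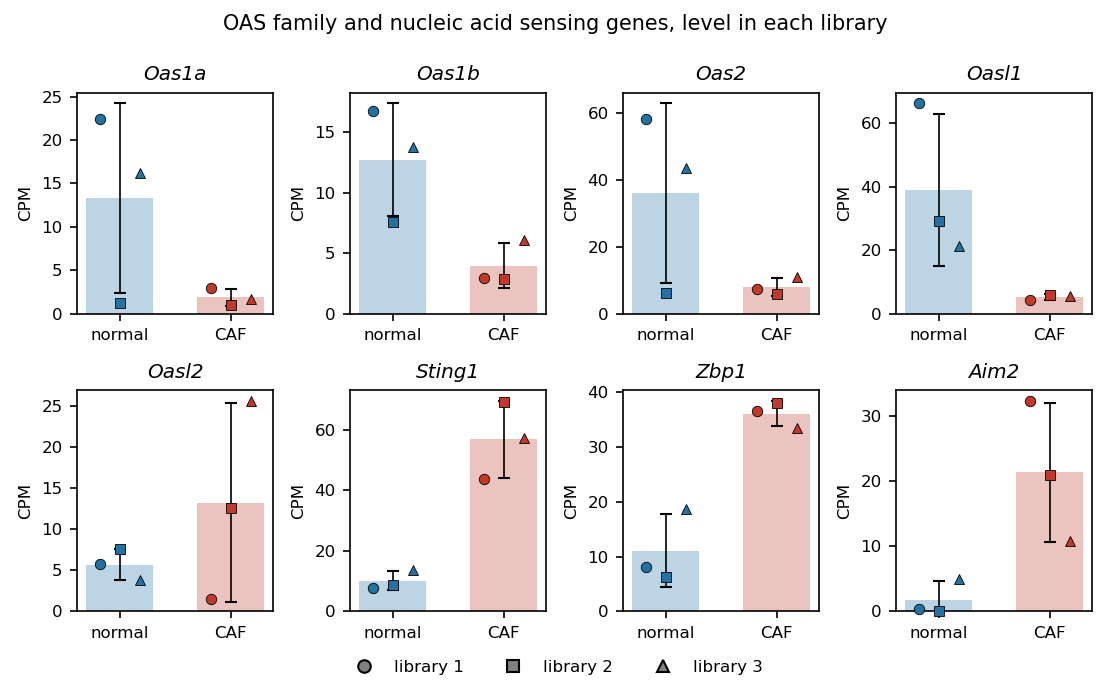
CPM (vertical axes, from 0) of 5 oligoadenylate synthetase genes and 3 nucleic acid sensing genes in normal (blue) and CAF (red) libraries; bars are means, whiskers the SD (cut at 0) and symbols the libraries. Oas1a, Oas2 and Oasl1 are high in normal library 1, and Sting1, Zbp1 and Aim2 have every CAF library above every normal library.

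The interferon-inducible GTPases, which attack vacuoles of intracellular microbes, ranged in log2 fold change from -0.36 to 1.12 over 5 tested genes of 6. Irgm1, a regulator of the family, was at 1.46, 24.2 and 30.3 CPM in CAF and 4.08, 38.0 and 3.75 CPM in normal libraries. Levels were thus high in CAF libraries 2 and 3 and in normal library 2 alone. Ifi47 was at 0, 18.5 and 10.0 CPM in CAF and 3.67, 7.60 and 3.75 CPM in normal libraries (log2 fold change 1.12 ± 0.95 SE, edgeR adjusted p = 0.666). Gbp2 was at 1.46, 12.1 and 19.3 CPM and Gbp3 at 0, 9.25 and 19.6 CPM in CAF, against 7.34, 15.2 and 17.5 CPM and 9.39, 17.7 and 13.8 CPM in normal libraries. CAF library 1, the library of lowest depth, was the lowest of all 6 for Irgm1, Ifi47, Gbp2 and Gbp3. Igtp was at 17.6, 14.1 and 23.5 CPM in CAF and 19.2, 16.5 and 36.3 CPM in normal libraries, and shares its span on the same strand with Irgm2.

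The remaining tested genes were sensors and the PARP9-DTX3L module of ADP-ribosylation and ubiquitin transfer. Ddx58 (RIG-I, a sensor of viral RNA ends) was at 4.39, 5.38 and 5.55 CPM in CAF and 4.08, 1.27 and 6.25 CPM in normal libraries. Dhx58 (LGP2, a regulator of the RNA sensors) was at 0, 2.21 and 4.73 CPM in CAF and 9.39, 1.27 and 6.25 CPM in normal libraries. Parp9 was at 8.78, 16.8 and 23.1 CPM in CAF and 10.6, 6.33 and 17.5 CPM in normal libraries, and Parp14 was at 10.2, 10.6 and 24.2 CPM in CAF and 20.8, 21.5 and 32.5 CPM in normal libraries. The groups overlapped in all of these, with edgeR adjusted p-values of 0.822, 0.646, 0.704 and 0.583 for Ddx58, Dhx58, Parp9 and Parp14. The 7 genes below the filter were Oas1a, Ifih1, Mx1, Rsad2, Gbp7, Dtx3l and Ifi44. Without a filter their log2 fold changes ranged from -3.07 for Oas1a to 1.71 for Ifih1 (MDA5, a sensor of long double-stranded RNA), with edgeR adjusted p-values of 0.152 to 0.8. Dtx3l, the ligase that shares a start region with Parp9, was at 4.39, 4.69 and 6.49 CPM in CAF and 4.49, 1.27 and 1.25 CPM in normal libraries.

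**Figure D4:**
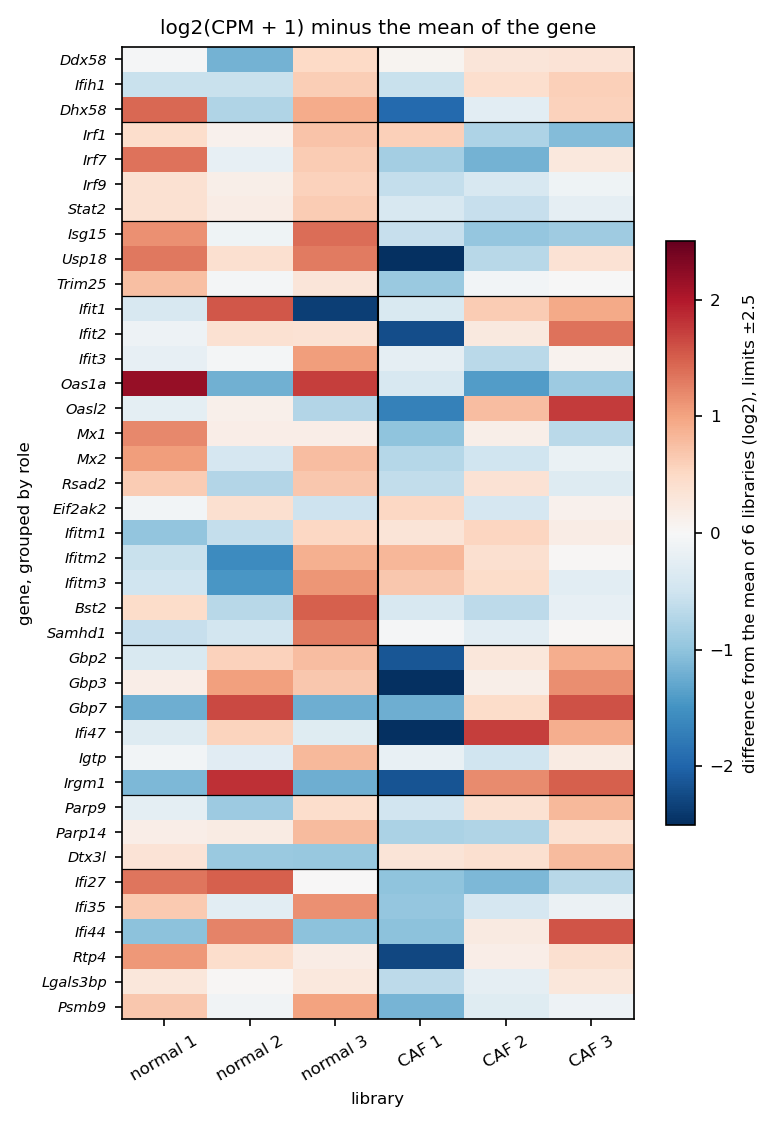
Level of the 39 interferon-stimulated genes in each library (columns) as log2(CPM + 1) minus the gene's mean over the 6 libraries, grouped by role between the horizontal lines; colours end at 2.5 in either direction. Normal library 3 is red in many rows, and CAF library 1 is deep blue where its genes had 0 or 1 count.

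Across the 32 tested genes the highest of the 6 libraries was normal library 3 for 14 genes, normal library 1 for 7, CAF library 3 for 5, normal library 2 for 3, CAF library 2 for 2 and CAF library 1 for 1. The same was not counted over all genes tested, so whether this order is particular to the list is not known. In CAF library 1, 9 of the 39 genes had 0 counts, against 0 in CAF libraries 2 and 3 and 3, 1 and 3 in normal libraries 1, 2 and 3. Against normal library 3 alone, 25 of the 32 genes were lower in CAF than in normal library 3 and the median log2 fold change was -0.79, against 0.29 over all genes, with 0 genes called among the 32 and among all genes. That fit has 1 normal library, whose spread is assumed to be that of the CAF libraries. Of the 25 tested genes with a promoter entry, the 13 with an ISRE match had a median log2 fold change of -0.11, 7 negative, and the 12 without had a median of -0.54, 8 negative.

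**Figure D5:**
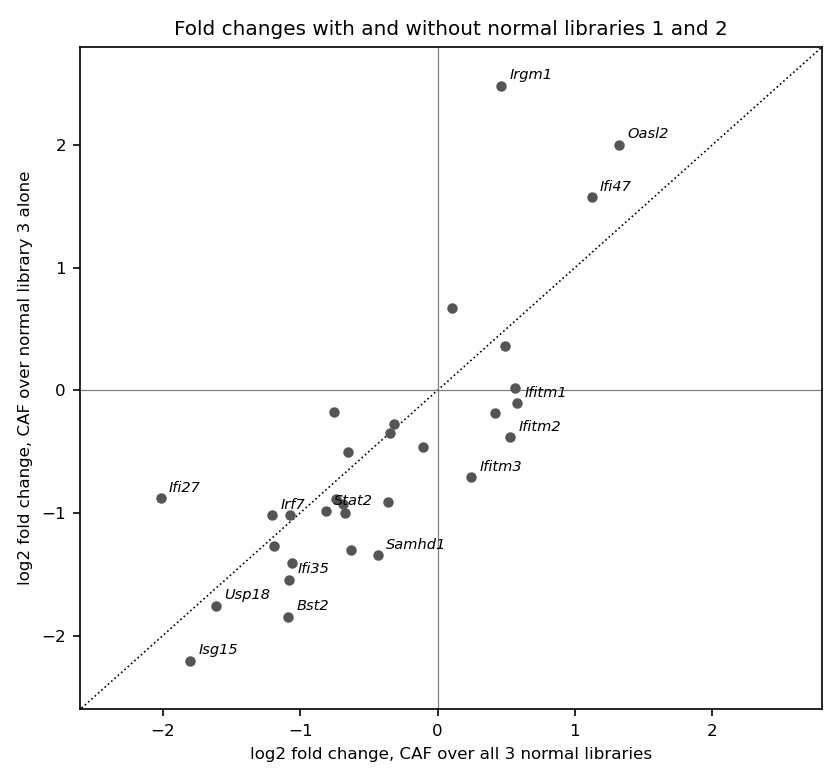
Log2 fold change of CAF over normal library 3 alone (vertical) against that over all 3 normal libraries (horizontal) for 31 tested genes, with the line of equality dotted; Ifit1, at 0 counts in normal library 3, is left out. Ifi27 lies above the line, at -2.02 and -0.88, while Bst2, Samhd1 and the IFITM genes lie below it.

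Genes upstream of this response were compared next, from lists of pathway genes. Among 16 tested genes of interferon receptors, JAK-STAT signalling and feedback (of 22 listed), 0 passed in either direction, and the median log2 fold change was 0.38. Those of smallest p were Stat3, at 315, 192 and 157 CPM in CAF and 114, 101 and 138 CPM in normal libraries, and Jak2, Ifngr2 and Ifnar2, with log2 fold changes of 0.91, 0.87, 0.53 and 0.55 (edgeR adjusted p = 0.28, 0.399, 0.508 and 0.567). The type I receptor chain Ifnar1 had a log2 fold change of 0.63, Jak1 of 0.46 and Tyk2 of -0.44 (edgeR adjusted p = 0.583, 0.7 and 0.634). The feedback inhibitors Socs1 and Socs3 had log2 fold changes of -0.19 and -0.61, and Ifngr1 of -0.82 (edgeR adjusted p = 0.845, 0.605 and 0.668), with Socs3 and Ifngr1 highest in normal library 3 at 1381 and 503 CPM. Of the interferon genes looked up (Ifna4, Ifnb1, Ifng, Ifnl2 and Ifnl3), none was found in the table used here.

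Among 16 tested genes of nucleic acid sensing and its adaptors (of 21 listed), 1 rose and 0 fell, where 0.897% of all genes were called higher and 0.207% lower, and the median log2 fold change was -0.05. Sting1, the adaptor through which cytosolic DNA triggers interferon, was at 43.9, 69.3 and 57.3 CPM in CAF and 7.75, 8.87 and 13.8 CPM in normal libraries. The lowest CAF library was far above the highest normal library, and the log2 fold change was 2.53 ± 0.39 (SE; 5.78-fold higher, edgeR adjusted p = 0.038). It passed in 9 of 15 alternative fits and did not pass without CAF library 1, 2 or 3 (edgeR adjusted p = 0.0556, 0.175 and 0.12), without normal library 1 or 2 (0.213 and 0.136) or against normal library 3 alone (0.377), while its log2 fold change stayed between 2.12 and 2.74. Zbp1 and Aim2, further sensors of nucleic acid named after their values were seen, did not pass (log2 fold change 1.73 and 3.79, edgeR adjusted p = 0.118 and 0.12), though every CAF library lay above every normal one. Both passed by DESeq2 (adjusted p = 0.0201 and 0.00776) and without normal library 3 (edgeR adjusted p = 0.0171 and 0.0186). They also passed in the authors' deposited table (adjusted p = 0.0223 and 0.0086). Its log2 fold changes for both equal those of DESeq2, so it is not a separate source. The fit without normal library 3 called 412 of 11888 genes higher and 781 lower. DESeq2 called 3 of 18 genes of this list higher and 0 lower, where it called 3.12% of all genes higher and 4.17% lower. Leukocyte markers summed to 258, 647 and 196 CPM in CAF and 51.8, 469 and 66.3 CPM in normal libraries, and their part in these levels was not tested.

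Among 37 tested genes of 66 other listed interferon-stimulated genes, 0 passed and 24 were negative, as were 46.1% of all genes. The median log2 fold change was -0.18. Of 51 genes of this list with an adjusted p by DESeq2, 2 were called lower, Oasl1 and Ifi27l2b (adjusted p = 0.000171 and 0.00132), and 0 higher. That is near the share over all genes, of which DESeq2 called 4.17% lower and 3.12% higher. The same 2 genes of 54 had an adjusted p under 0.05 in the authors' deposited table, at 0.000189 and 0.00147. There 3.61% of all genes were lower. Its log2 fold changes for Oasl1 and Ifi27l2b equal those of DESeq2, so it is not a separate source. After Oasl1 those of smallest p were Ifi27l2b, Znfx1 and Oas2. Ifi27l2b, a relative of Ifi27 whose reads could be shared with close copies, was at 13.2, 20.4 and 43.0 CPM in CAF and 500, 450 and 32.5 CPM in normal libraries. It was thus high in normal libraries 1 and 2, where the gland share was highest, and within the CAF range in normal library 3, with a log2 fold change of -3.63 (edgeR adjusted p = 0.109). It passed without normal library 3 (log2 fold change -4.21, edgeR adjusted p = 0.00742), in a fit that called 781 of 11888 genes lower and 412 higher. Of 42 genes of this list in that fit, 3 were called lower (Cxcl10, Ifi27l2b and Oasl1) and 1 higher (Ifi205). Against normal library 3 alone the log2 fold change of Ifi27l2b was -0.23. Znfx1, an RNA helicase-like sensor, was at 11.7, 17.8 and 24.5 CPM in CAF and 48.2, 29.1 and 53.8 CPM in normal libraries, without overlap (log2 fold change -1.24, edgeR adjusted p = 0.202).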

How the data were processed

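The data were raw counts per gene symbol, deposited by the authors in 1 table with their normalized signal (the normalized count per the file headers), their regularized log2 values and the log2 fold change, p-value and adjusted p-value of their own comparison. Per the submitters' processing notes, the tools included STAR, HTSeq, cutadapt and DESeq2 and the build was mm10. Versions, annotation, strand and any collapse of molecular identifiers: not given in the sources used here. Genes were compared by edgeR's quasi-likelihood test (version 4.0.16, R 4.3.3) on the raw counts (filterByExpr, trimmed mean of M-values, group as the only term, Benjamini-Hochberg adjustment over 10148 genes, threshold 0.05). Standard errors were derived from the F statistic and are approximate. CPM use the scaled library sizes. The normalized and regularized values were not used. Alternatives used DESeq2 1.42.0, limma 3.58.1 (voom), other size factors, other filters, left-out libraries, mice per library as a covariate, and a table without gland genes. The procedure was tested on simulated data. Replicate libraries differed beyond counting noise. The members, lists and tests were chosen with earlier results of these data known. Each of the 40 listed genes is accounted for; pathway genes were named where called, otherwise the 4 of smallest p, with the receptors, kinases, Socs1 and Socs3; a gene of that rule is not reported here. Percent intervals and limits for 0 counts (3 counts) cover counting error only. Gene spans are from GENCODE on GRCm38, the mm10 assembly, and promoters from RefSeq on GRCm38.p6.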

Additional observations from a re-analysis of the deposited data

How the results depend on the processing

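The number of genes called among all genes was 112, 935 with DESeq2, 65 with limma-voom and 0 with normal libraries 1 and 2 left out. With 1 library left out it ranged from 0 to 1193: 49, 4 and 29 without CAF library 1, 2 or 3 and 0, 6 and 1193 without normal library 1, 2 or 3. Fewer samples enter those fits; the cause of the differences between tools was not tested. The number of interferon-stimulated genes called was 0, 3 with DESeq2, and 0 to 1 with 1 library left out. Of the 32 tested genes, 21 kept their sign in every alternative that tested them (15 genes in all 15 alternatives, the other 6 in 11 to 14), and 11 did not. Against normal library 3 alone the log2 fold change turned to -0.19 for Ddx58, -0.10 for Ifitm1, -0.38 for Ifitm2 and -0.71 for Ifitm3. It was -0.43 for Ifit2 with mice per library as a covariate and 0.37 for Gbp2 with limma-voom. With 1 library left out it ranged from -0.21 to 1.81 for Ifit1, -0.16 to 0.35 for Eif2ak2, -0.17 to 1.17 for Ifitm3, -0.78 to 0.38 for Samhd1, -0.73 to 0.30 for Gbp2, -1.23 to 0.12 for Gbp3 and -0.10 to 2.31 for Irgm1. The cause was not tested. The alternatives were also run, after seeing the data, for the pathway genes named. No paired analysis was possible because the labels give no replicate numbers shared by the groups. Low depth limits genes near 1 count in CAF library 1.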
